A study of Homo sapiens with 12 samples.

Results

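The addition of cisplatin to A549/DDP cells kept on a feeding-restriction schedule is described here across all genes, from the 6 libraries of the TRF+DDP and TRF groups out of 12 libraries in the series. The members were chosen by their labels: 3 libraries of cells given DDP (cisplatin) in restricted medium and 3 libraries of cells in restricted medium alone. A549/DDP is a human lung adenocarcinoma line derived from A549 and selected for resistance to cisplatin. Restricted medium (TRF) meant that in each cycle of 24 h the cells had 6 h of normal medium (RPMI-1640 with 2 g/L glucose and 10% fetal bovine serum) and 18 h of medium with neither serum nor glucose. Both groups compared had this schedule, so the comparison sets the drug against no drug in cells that were starved and refed. At which point of the cycle the cells were taken for sequencing is not stated. The CON and DDP groups, with 3 libraries each in normal medium throughout, serve only to show where the response to the drug differed between the media. All 4 groups came from the same resistant line, which was held in cisplatin during culture, and whether the drug was withdrawn before the experiment is not stated. The dose and duration of DDP are not stated for the sequenced cultures on their own. The study's legend to its sequencing results gives a dose and duration next to its RT-qPCR, not separately for sequencing. A549/DDP is 1 derived line, and while the study's legend to its sequencing results speaks of 3 biological replicates, neither it nor the labels say whether these were separate cultures, so p-values measure only the spread between these libraries.

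Cisplatin binds purine bases and links them within a DNA strand or across opposite strands, which blocks replication forks and elongating RNA polymerase. Cells answer through the kinases ATR and ATM and the transcription factor p53. Stabilised p53 binds the promoters and introns of genes that hold the cell cycle, repair DNA, feed back on p53 itself or set off death, while withdrawal of serum and glucose lowers growth factor signalling and activates the energy sensor AMPK, and refeeding restores both.

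The values were the authors' TPM (a transcript's length-corrected share of the library's transcripts), so the reads behind a value are unknown and no counting error can be given. Each library pools many cells, so fewer cells with a transcript and less of it per cell cannot be told apart. Between 13029 and 13307 genes per library reached 1 TPM in TRF and between 13384 and 13500 in TRF+DDP. Transcripts of the mitochondrial genome took 7.97% ± 1.39 of the TPM in TRF (SD, n = 3), with replicate 3 lowest at 6.37%, and 8.46% ± 0.1505 in TRF+DDP (two-sided exact permutation test, p = 1, where the smallest p possible is 0.1). The levels of KRT8 (686 to 947 TPM) and KRT18 (602 to 784 TPM), keratins of simple epithelium, and the near absence of CDKN2A (at most 0.09 TPM), which A549 lacks by deletion, fitted the labelled line in all 6 libraries, whereas the epithelial adhesion molecules EPCAM (at most 0.1 TPM) and CDH1 (at most 0.07 TPM) were almost absent. PTPRC, a defining marker of leukocytes, was at 0, and the endothelial markers PECAM1 and CDH5 stayed at or below 0.08 TPM. Of the fibroblast markers, DCN and LUM stayed at or below 0.16 TPM, but COL1A1 was at 9.96 to 11.7 TPM in TRF and 5.35 to 6.61 TPM in TRF+DDP, and VIM, vimentin, averaged 3908 and 2882 TPM.

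Cisplatin in restricted medium moved 2258 of 13854 genes tested (16.3%), of which 1413 were higher (10.2%) and 845 were lower (6.1%). A gene counted as higher or lower when its adjusted p (limma, Benjamini-Hochberg) was under 0.05 and its change exceeded 1.5-fold on the scale of log2(TPM + 1), which understates the change of genes with low TPM. Genes averaging 1 TPM or more in the 12 libraries were tested. At the adjusted p alone, 3891 genes were higher and 2748 lower. The balance of directions depended on scaling: TMM-style scaling gave 1169 higher and 1061 lower, and quantile normalization 1049 and 1066. The median log2 change over all genes was 0.06 as deposited, -0.00097 with TMM-style scaling and -0.0068 with quantile normalization. Values with ± are means and SD of 3 libraries, and numbers in brackets after a gene are log2 changes unless another unit is given, and counts on the unadjusted p are those under 0.05 in limma. In normal medium the same drug moved 279 genes (2.01%), 257 higher (1.86%) and 22 lower (0.159%), with 169 higher and 37 lower under TMM-style scaling and 169 and 46 under quantile normalization.

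Among protein-coding genes averaging 10 TPM or more in TRF and TRF+DDP, the largest rises were those of GDF15, CDKN1A, FOS, BTG2, MDM2, PMAIP1, HBEGF, TMEM40, HES2, DGKA, ULBP2 and TM7SF2. These 12, like the falls below, were chosen among genes with no overlap between TRF and TRF+DDP, so that their separation is no result. Of these 12 protein-coding genes, each averaging 10 TPM or more, 5 stand on a list of known p53 targets, and none spans more than 100 kb of the genome. Under the same conditions the largest falls were those of CDH4, RPL22L1, MAD1L1, ZMIZ1, PRKCA, PLK1, CTIF, TNS3, DENND1A, PSRC1, EPHB2 and SLCO3A1, of which 9 span more than 100 kb and 7 more than 300 kb. Some genes below that level changed by as much or more, such as EGR1 (2.84), SPOCK1 (-2.85) and SIPA1L1 (-1.90). Of all 11874 protein-coding genes tested, 19.1% span more than 100 kb, and 373 span more than 300 kb.

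**Figure D1:**
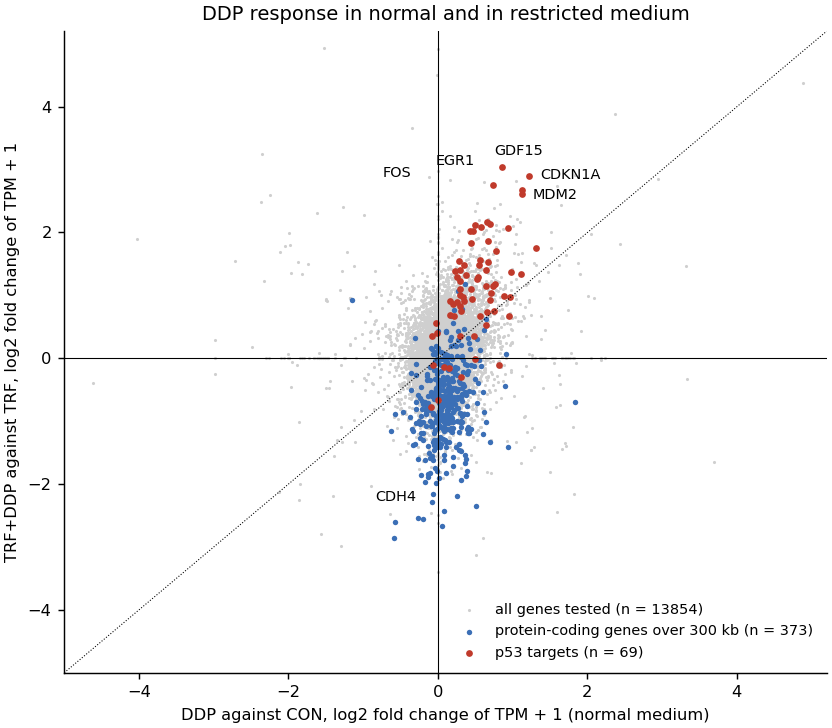
Each point is 1 gene, with its log2 change with DDP in normal medium on the horizontal axis and in restricted medium on the vertical axis. The 69 p53 targets (red) lie mostly above the dotted line of equal response, and the 373 protein-coding genes over 300 kb (blue) lie mostly below 0 on the vertical axis and around 0 on the horizontal one.

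Genes through which p53 arrests the cell cycle and feeds back on itself mostly rose. Of 50 tested, 44 were higher, 1 was lower and 5 were not called, against 10.2% of all genes higher. The list's median log2 change was 1.21, beside 0.06 over all genes tested. In normal medium 21 of the 50 were higher, beside 1.86% of all genes, none was lower (0 lower at an unadjusted p under 0.05, limma), and the median was 0.55.

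CDKN1A encodes p21, the inhibitor of cyclin-dependent kinases that p53 uses to stop the cycle (chr6:36676460-36687339, GRCh38, GENCODE v29 annotation, as for all positions below). Its level was 121, 129.7 and 126 TPM in the TRF libraries and 960.2, 929 and 949 TPM in the TRF+DDP libraries. Its rise was 7.54-fold in mean TPM or 2.91 ± 0.04 SE on the log2 scale (adjusted p = 3.85e-13). In normal medium DDP took it from 118 ± 4.27 to 275 ± 6.46 TPM (SD, n = 3), a log2 change of 1.22 that was smaller by 1.69 (interaction, adjusted p = 7.65e-09).

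GDF15, a stress-induced cytokine of the TGF-beta superfamily (chr19:18374731-18389176), stood at 41.95, 47.3 and 47.7 TPM without and 372, 393 and 377 TPM with the drug, 8.34-fold higher (log2 change 3.03 ± 0.05 SE, adjusted p = 2.07e-12). The 3 treated libraries lay within a narrow band. Restricted medium alone held less GDF15 than normal medium, where CON had 111 ± 0.725 and DDP 201 ± 7.15 TPM, a log2 change of 0.85.

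MDM2, the ubiquitin ligase that p53 induces and that degrades p53, read 24.4, 36.2 and 25.2 TPM in TRF and 184 ± 0.146 TPM in TRF+DDP, where the 3 libraries were almost equal (log2 change 2.67 ± 0.12 SE, adjusted p = 2.51e-08). BTG2, an antiproliferative gene on both the p53 and the immediate early lists, went from 9.28, 7.79 and 8.3 to 61.97, 65.2 and 60.8 TPM (log2 change 2.75 ± 0.06 SE). GADD45A, which binds PCNA and takes part in repair and G2 arrest, went from 53.7, 63.7 and 61.96 to 213, 228 and 216 TPM (log2 change 1.86 ± 0.06 SE, adjusted p = 2.42e-09). The member that fell was GTSE1, a mitotic microtubule protein that restrains p53, at 21.02 ± 0.978 TPM in TRF and 12.9 ± 1.01 TPM in TRF+DDP (log2 change -0.67).

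Of 20 regulators of p53, 3 were higher and 1 was lower (15% and 5%, beside 10.2% and 6.1% of all genes). The list's median was 0.04. The rises were MDM2, PPM1D (log2 change 1.56), a phosphatase that dampens the damage signal, and the ubiquitin ligase RCHY1 (0.67), and the fall was the ubiquitin ligase COP1 (-0.63). RCHY1 fell below the 1.5-fold limit under quantile normalization (0.56) and COP1 without replicate 2 of TRF+DDP (-0.58).

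**Figure D2:**
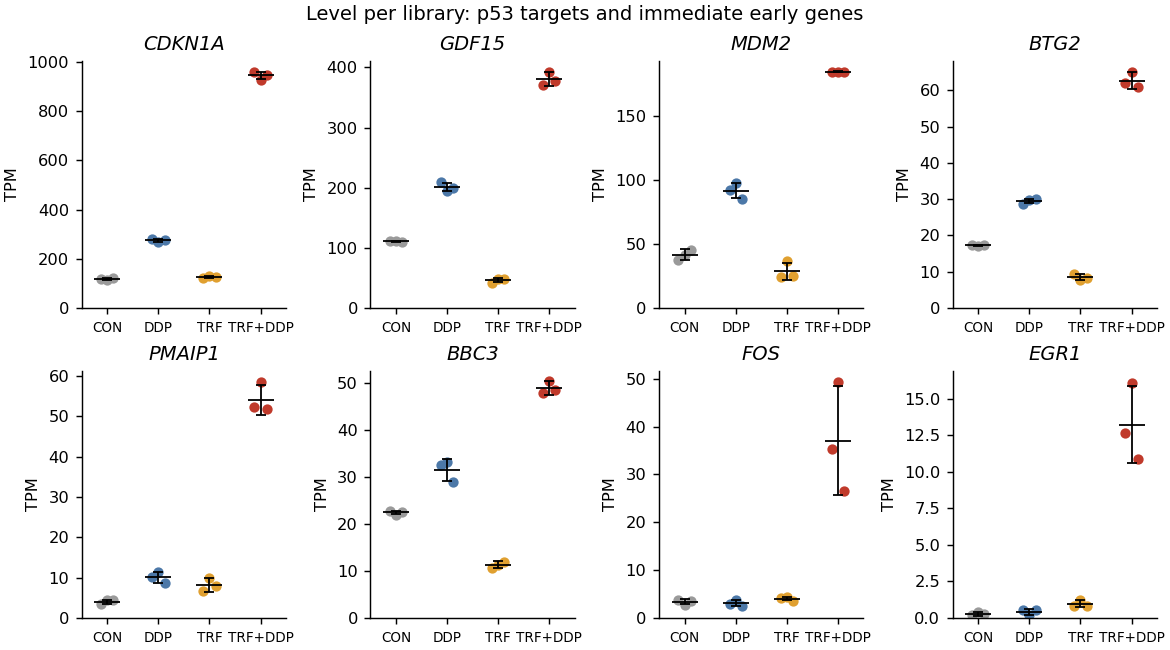
TPM per library (points) in the 4 groups, with the mean and SD of 3 libraries (black), for 6 p53 targets and 2 immediate early genes, each on its own axis from 0. CDKN1A sits between 929 and 960.2 TPM in TRF+DDP and between 121 and 129.7 in TRF.

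Targets through which p53 promotes death also rose: 12 of 20 tested were higher and 1 was lower (60% and 5%, beside 10.2% and 6.1% of all genes), with a median of 0.89. In normal medium 6 of the 20 were higher, beside 1.86% of all genes, and the median was 0.40. None was lower there (0 lower at an unadjusted p under 0.05). PMAIP1 (NOXA), a BH3-only protein that neutralises MCL1, was at 6.58, 10.01 and 7.86 TPM in TRF and 52.3, 58.5 and 51.8 TPM in TRF+DDP (log2 change 2.61 ± 0.14 SE, adjusted p = 2.89e-08). BBC3 (PUMA), another BH3-only protein, went from 11.3 ± 0.691 to 48.9 ± 1.42 TPM (log2 change 2.02). PIDD1, the scaffold that activates caspase-2, went from 19.8 ± 0.481 to 91.3 ± 8.91 TPM (log2 change 2.14), and the death receptor FAS from 21.9 ± 2.19 to 73.2 ± 3.36 TPM (log2 change 1.70). STEAP3, a metalloreductase, was the member that fell (log2 change -0.77).

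Of 16 BCL2 family members 4 were higher and 1 lower (25% and 6.25%, beside 10.2% and 6.1% of all genes). Beside PMAIP1 and BBC3, the rises were BIK, at 0.943 ± 0.536 TPM in TRF and 4.57 ± 0.19 in TRF+DDP, and BAK1, a pore-forming effector of the mitochondrial outer membrane. BAK1 was at 39.4, 40.8 and 40.2 TPM in TRF and 77.5, 74.8 and 73.01 TPM in TRF+DDP (log2 change 0.89 ± 0.05 SE, adjusted p = 9.49e-08). The fall was that of BMF (-0.88), a BH3-only gene. Of 27 caspases, adaptors and inhibitors 5 were higher and 2 lower (18.5% and 7.41%, beside 10.2% and 6.1% of all genes). APAF1, the core of the apoptosome, went from 5.05 ± 0.815 to 14.7 ± 0.842 TPM (log2 change 1.38). BIRC3, an inhibitor of apoptosis, rose by 0.72 but missed the fold limit without replicate 1 of TRF (0.55), and BIRC5 (survivin, -0.62) and the adaptor CRADD (-0.93) fell.

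Immediate early genes, which growth factors and stress kinases switch on within minutes through SRF and CREB, rose in restricted medium. Of 28 tested, 15 were higher and 1 was lower (53.6% and 3.57%, beside 10.2% and 6.1% of all genes), with a median of 0.69. In normal medium 3 were higher, beside 1.86% of all genes, and the median was 0.05. By the interaction test 21 of the 28 had a more positive effect of DDP in restricted than in normal medium and 4 a more negative one. Over all 13854 genes tested, 1868 were more positive and 2261 more negative. FOS, an AP-1 subunit (chr14:75278774-75282230), was at 4.14, 4.3 and 3.62 TPM in TRF and 35.4, 49.3 and 26.6 TPM in TRF+DDP. All treated libraries were high but spread among themselves (log2 change 2.88 ± 0.19 SE, adjusted p = 1.67e-07), and CON and DDP held 3.42 ± 0.546 and 3.09 ± 0.596 TPM. EGR1, a zinc finger factor, was near the limit of 1 TPM in TRF, at 0.83, 1.24 and 0.84 TPM, and at 12.7, 16.1 and 10.9 TPM with the drug (log2 change 2.84 ± 0.16 SE, adjusted p = 6.12e-08). FOSB, a further AP-1 subunit, went from 0.937 ± 0.166 to 10.2 ± 3.24 TPM (log2 change 2.49). The list's fall was MYC, at 77.5 ± 4.19 TPM in TRF and 49.7 ± 2.502 TPM in TRF+DDP (log2 change -0.63).

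The promoters of these groups were searched in the RefSeq table (GRCh38.p14), which gives 250 bases before and 50 after a gene's start, taking the first start listed for each gene. The CArG box, the SRF site, was in 1.29% of 27305 promoters and in 1.00% of the tested genes with an entry. It was in 1.64% of those called higher and in 1.71% of those called lower. Among the immediate early genes that rose and have an entry, 1 of 12 held it. That gene was EGR1, whose stretch is shown because it holds 2 such boxes (capitals) within a short distance before the start, at chr5:138465354-138465425 on the plus strand:
EGR1: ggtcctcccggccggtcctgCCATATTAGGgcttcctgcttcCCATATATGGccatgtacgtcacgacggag
The palindromic CRE, TGACGTCA (the same on both strands), was in 3.49% of the 10076 tested genes with an entry, in 5.24% of the 973 called higher and in 2.02% of the 642 called lower. Among the p53 targets that rose it was in 3 of 45, and among the immediate early genes that rose in 1 of 12. A stretch of 2 of these promoters is shown with the CRE in capitals, that of MAFF, a small MAF factor (chr22:38201920-38201967, plus strand, log2 change with DDP 1.33), and that of PPM1D (chr17:60600112-60600159, plus strand):
MAFF: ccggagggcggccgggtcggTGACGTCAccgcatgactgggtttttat
PPM1D: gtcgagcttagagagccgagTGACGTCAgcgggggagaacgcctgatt
Tandem p53 half-sites with a spacer of at most 13 bases were in none of the 45 promoters of p53 targets that rose and in 8 of 27305 promoters, which says only that this window does not hold those letters. They were in 4 of the 10076 tested genes with an entry, in 2 of the 973 called higher and in 0 of the 642 called lower.

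Feedback inhibitors of the ERK kinases rose in 7 of 19 tested and fell in 1 (36.8% and 5.26%, beside 10.2% and 6.1% of all genes). DUSP14 (1.10), DUSP8 (1.09), DUSP5 (1.02) and DUSP6 (0.87) are phosphatases of MAP kinases, and LRIG1 (-0.81), a negative regulator of ERBB receptors, fell. Among 8 EGFR ligands and receptors, HBEGF and TGFA were higher and EGFR was lower (25% and 12.5%, beside 10.2% and 6.1% of all genes). HBEGF, a membrane-shed ligand of EGFR, was at 4.08, 5.8 and 4.17 TPM in TRF and 29.6, 33.8 and 27.1 TPM in TRF+DDP (log2 change 2.46 ± 0.14 SE, adjusted p = 7.09e-08). EGFR itself, a gene of 193 kb, went from 14.3 ± 1.37 to 8.27 ± 0.763 TPM (log2 change -0.72). The ligand and its receptor thus moved in opposite directions.

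Among the other large rises, TMEM40, a membrane protein, went from 2.97, 2.51 and 3.13 to 19.9, 16.3 and 19.7 TPM. HES2, a basic helix-loop-helix repressor, went from 4.55 ± 0.737 to 25.4 ± 0.251 TPM (log2 change 2.26 ± 0.15 SE), and DGKA, a diacylglycerol kinase, from 12.1 ± 2.04 to 59.4 ± 4.93 TPM (log2 change 2.21 ± 0.12 SE). ULBP2, a ligand of the natural killer receptor NKG2D, went from 5.05, 6.25 and 5.75 to 29.2, 30.2 and 29.04 TPM (log2 change 2.19 ± 0.10 SE, adjusted p = 9.14e-09). The log2 changes of these 4 genes in normal medium were 0.49, 0.96, 1.06 and 0.55 in the same order.

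Long genes were mostly lower with the drug in restricted medium, and not in normal medium. The span of a gene is here its length on the genome, introns included, as the annotation gives it. Over protein-coding genes, the median log2 change with DDP was 0.10 for 2179 genes under 10 kb, 0.13 for 3403 genes of 10 to 30 kb and 0.07 for 4029 genes of 30 to 100 kb. It was -0.15 for 1890 genes of 100 to 300 kb and -0.71 for 373 genes over 300 kb. Of those 373 genes, 219 were lower (58.7%) and 5 higher (1.34%), against 6.1% and 10.2% of all genes tested. In normal medium the same bins had medians of 0.04, 0.05, 0.08, 0.09 and 0.08, and 1 of the 373 longest genes was lower, SPOCK1, named after its value was seen.

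The pattern was present in each library. Set against the mean of the TRF libraries, the median over the genes of more than 300 kb was -0.68, -0.70 and -0.73 in the 3 TRF+DDP libraries and -0.04, 0.08 and -0.05 in the 3 TRF libraries. Set against the mean of CON, it was 0.06, 0.14 and 0.07 in the DDP libraries. The groups in restricted medium did not overlap, and the difference between the media in this median was not tested. Within 3 equal groups by exon length the median of the longest bin was -0.72, -0.88 and -0.64 from the shortest to the longest group, and within 3 equal groups by mean level it was -0.71, -0.71 and -0.59 from the lowest to the highest, so the median was negative in every group. Across the 11874 protein-coding genes, which share libraries and are not independent replicates, Spearman's rho of the log2 change with span was -0.26 in restricted medium and 0.11 in normal medium, and -0.09 with exon length in restricted medium. The median span was 172 kb for the 792 protein-coding genes that fell, 23.4 kb for the 1179 that rose and 33.1 kb for all those tested.

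**Figure D3:**
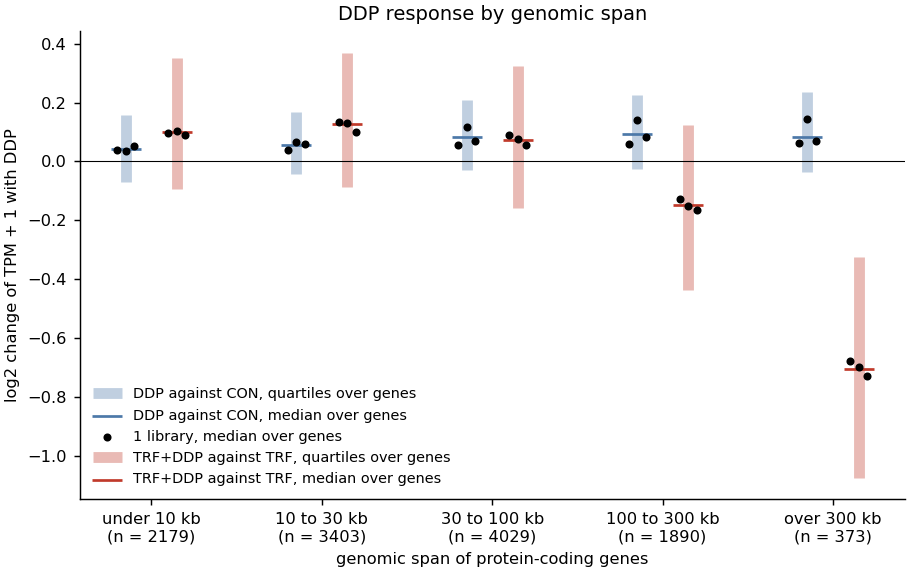
Log2 change of TPM + 1 with DDP by genomic span of protein-coding genes, in normal medium (blue) and restricted medium (red), with the median over genes (line), the quartiles over genes (bar) and the median of each drug-treated library (black points). The red median falls from 0.10 in the shortest bin to -0.71 in the longest, while the blue median stays between 0.04 and 0.09.

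CDH4, a classical cadherin (R-cadherin) and the first of these 12 falls by size, spans 688 kb (chr20:61252426-61940617). It was at 30.04, 29.6 and 27.9 TPM in TRF and 7.71, 5.52 and 4.44 TPM in TRF+DDP (log2 change -2.16 ± 0.13 SE, adjusted p = 8.2e-08). TRF cells held more of it than CON cells (13.04 ± 0.2402 TPM), and the treated libraries lay below the mean of CON too. MAD1L1, which anchors the spindle checkpoint (417 kb), went from 26.3, 21.3 and 24.5 to 5.76, 7.83 and 7.23 TPM (log2 change -1.66 ± 0.12 SE, adjusted p = 3.37e-07). ZMIZ1, a transcriptional coactivator (247 kb), went from 22.9 ± 1.03 to 6.73 ± 0.4703 TPM (log2 change -1.63), and PRKCA, protein kinase C alpha (508 kb), from 25.5 ± 0.227 to 7.63 ± 0.316 TPM (log2 change -1.62). Their changes in normal medium were -0.06, 0.36, -0.19 and 0.08, none of which passed.

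CTIF, a translation factor of the nuclear cap-binding complex (324 kb), fell by 1.57, TNS3, a focal adhesion protein (307 kb), by 1.55, and DENND1A, an exchange factor for RAB35 (550.5 kb), by 1.54 on the log2 scale. EPHB2, an ephrin receptor (211 kb), went from 74.4 ± 0.439 to 26.3 ± 0.912 TPM (log2 change -1.47), and SLCO3A1, an organic anion transporter (319 kb), from 19.05 ± 0.904 to 6.36 ± 1.55 TPM (log2 change -1.46). The short genes among the 12 largest falls were PLK1, PSRC1 and RPL22L1. RPL22L1, a paralog of ribosomal protein L22 (5.61 kb), was at 124, 151 and 133 TPM in TRF and 40.2, 36.3 and 38.4 TPM in TRF+DDP (log2 change -1.80 ± 0.11 SE), against 55.3 ± 1.63 TPM in CON. Processed copies of ribosomal protein genes can take reads from it, so its level is less certain.

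The 5 genes over 300 kb that rose are named after their values were seen. They were C2orf88 (log2 change 1.19), PALLD (0.78), NAV3 (0.78), SGCD (0.67) and DST (0.62). PALLD, the actin-bundling protein palladin, went from 16.5 to 29.1 TPM on average and DST, the cytoskeletal linker dystonin, from 10.7 to 16.7 TPM. Some list members named as lower were long too, among them PRIM2 (332 kb), COP1 (263 kb), CRADD (217 kb) and COL4A2 (207 kb). COL4A1 (158 kb), LRIG1 (122 kb), MSH6 (115 kb) and BMAL1 (111 kb) also span more than 100 kb.

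**Figure D4:**
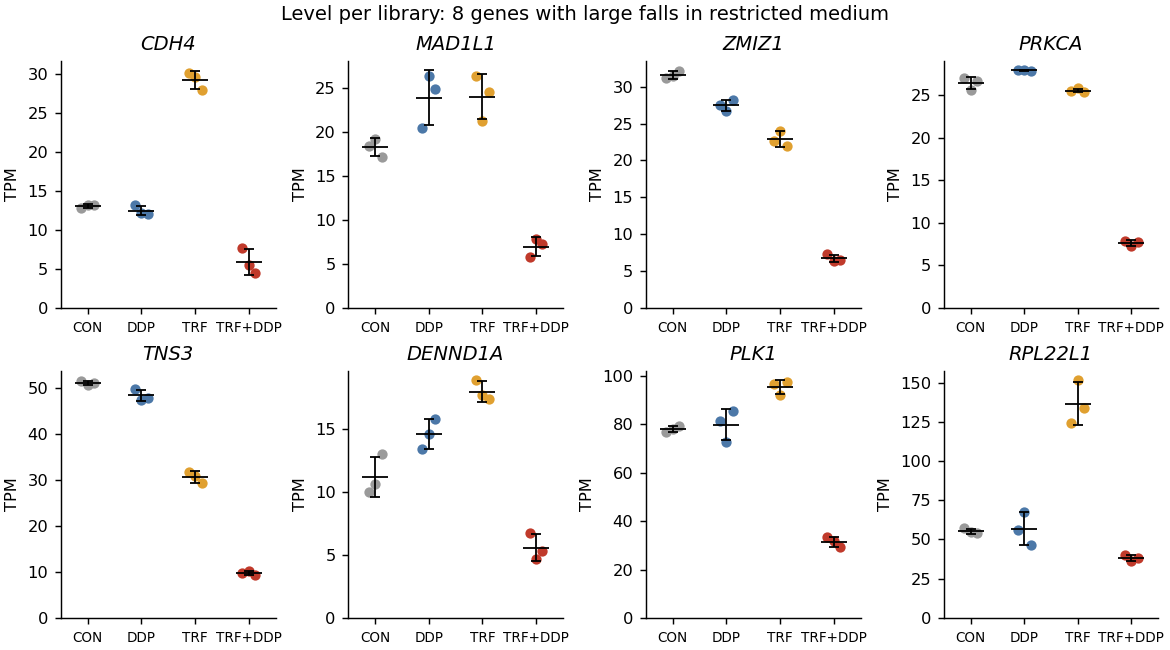
TPM per library (points) in the 4 groups, with the mean and SD of 3 libraries (black), for 8 of the 12 genes with the largest falls, each on its own axis from 0. In every panel the 3 TRF+DDP libraries lie below all CON and DDP libraries, and below all TRF libraries, which the choice of these genes required. PRKCA, for example, sits between 7.27 and 7.87 TPM in TRF+DDP and between 25.4 and 25.8 in TRF.

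Of 52 genes of mitosis tested, 14 were lower (26.9%, beside 6.1% of all genes) and none higher (33 lower and 4 higher on the unadjusted p, limma), with a median of -0.35, and 2 of the 52 span more than 100 kb. In normal medium 1 was higher (beside 1.86% of all genes) and 0 were lower, with 0 lower at an unadjusted p under 0.05, and the median was 0.13. PLK1, the polo-like kinase of mitotic entry and spindle assembly (chr16:23677656-23690367), was at 96.9, 92.1 and 97.6 TPM in TRF and 33.3, 31.7 and 29.2 TPM in TRF+DDP (log2 change -1.58 ± 0.06 SE, adjusted p = 5.31e-09). AURKA, the Aurora kinase of centrosomes, went from 128 ± 2.52 to 55.7 ± 3.28 TPM (log2 change -1.19). CENPA, the centromeric histone variant, went from 35.04 ± 2.69 to 16.7 ± 1.46 TPM (log2 change -1.03), and CDCA3, a trigger of mitotic entry, from 51.05 ± 3.44 to 25.8 ± 1.87 TPM (-0.96). PSRC1, a spindle protein outside the list, went from 23.01 ± 0.527 to 7.45 ± 1.102 TPM (log2 change -1.51). With TMM-style scaling or quantile normalization 21 mitotic genes were lower in place of 14.

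Of 47 DNA replication genes 4 were higher and 5 lower (8.51% and 10.6%, beside 10.2% and 6.1% of all genes). The rises included PCNA, the sliding clamp (249 ± 2.79 to 490.4 ± 21.2 TPM, log2 change 0.97), and the ribonucleotide reductase subunits RRM2 (0.77) and RRM1 (0.68). The largest falls were GINS1 (-0.80), PRIM2 (-0.74), MCM6 (-0.73) and ORC1 (-0.69), parts of the helicase, the primase and the origin complex. Of 27 G1 cyclins, CDK inhibitors and E2F genes 5 were higher and 2 lower (18.5% and 7.41%, beside 10.2% and 6.1% of all genes). Next to CDKN1A stood E2F7, a repressor of E2F targets (1.48), the CDK inhibitor CDKN1C (1.10) and CCNE2 (0.78), and CDKN2C (-0.62) and E2F2 (-0.71) fell. Of 22 replication-dependent histone genes 3 were higher and 2 lower (13.6% and 9.09%, beside 10.2% and 6.1% of all genes). H4C14, H2BC15 and H2BC11 rose and H4C1 and H2AC20 fell, but these near-identical genes share reads and their transcripts mostly lack the tail that oligo(dT) selects. H2BC11 was lost without replicate 3 of TRF (0.53). H4C1 was lost without replicate 2 of TRF (adjusted p = 0.0569) and without replicate 1 (0.0561) or 3 (0.0589) of TRF+DDP, and with only the 2 groups in the fit (0.0570). H2AC20 was lost without replicate 1 (adjusted p = 0.0736) or 3 (0.0548) of TRF and without replicate 2 (0.0730) or 3 (0.0623) of TRF+DDP, with only the 2 groups in the fit (0.0598) and with no filter on low genes (0.0538).

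Shares of repair genes called differed between the lists, beside 10.2% higher and 6.1% lower of all genes. In nucleotide excision repair, the route that removes most cisplatin adducts, 1 of 26 was higher and none lower (1 lower and 12 higher on the unadjusted p). It was DDB2, the damage sensor that p53 induces, at 96.8, 85.9 and 96.6 TPM in TRF and 159, 153 and 159 TPM in TRF+DDP (log2 change 0.75 ± 0.05 SE), with a nearly equal change in normal medium (0.75). In crosslink repair and recombination 1 of 37 was higher and 2 lower. RAD51C, a recombination factor, went from 23.6 ± 3.19 to 52.8 ± 1.33 TPM (log2 change 1.13), and FANCC (-0.83, 328 kb) and RAD51B (-0.92, 910.4 kb) fell. RAD51B, at 3.25 ± 2.15 TPM in TRF, was lost without replicate 1 (adjusted p = 0.0539) or replicate 2 (adjusted p = 0.0548) of TRF+DDP or replicate 3 of TRF (log2 change -0.54), and with only the 2 groups in the fit (adjusted p = 0.0638). Of 21 translesion and mismatch repair genes 5 were higher (23.8%, beside 10.2% of all genes) and 1 lower. POLH, the polymerase that copies past cisplatin adducts, went from 12.6, 14.6 and 14.3 to 36.4, 40.02 and 38.5 TPM (log2 change 1.41 ± 0.08 SE, adjusted p = 6.07e-08), REV3L, the catalytic subunit of polymerase zeta, from 2.397 ± 0.491 to 5.34 ± 0.479 TPM (0.91), and MSH6 fell (-0.67). Of 25 damage checkpoint genes none was higher (9 at an unadjusted p under 0.05) and 2 were lower, the phosphatases CDC25B (-0.66) and CDC25C (-0.63).

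In the list of ATF4 and amino acid response genes 7 of 36 were higher and 3 lower (19.4% and 8.33%). Over all genes the shares were 10.2% and 6.1%. GDF15 and SESN2 on this list are p53 targets as well. DDIT3 (CHOP) went from 5.69, 6.15 and 5.96 to 29.3, 26.3 and 26.5 TPM (log2 change 2.03 ± 0.08 SE), and CHAC1, which degrades glutathione, from 0.81 ± 0.108 to 5.23 ± 1.61 TPM (1.75). The falls were SLC6A9 (-0.79), JDP2 (-0.77) and PYCR1 (-0.75), a proline synthesis enzyme. Of 29 genes of ER chaperones and the unfolded protein response 6 were higher and 1 lower (20.7% and 3.45%). XBP1, its main transcription factor, went from 18.1 ± 1.03 to 45.03 ± 5.76 TPM (log2 change 1.26), ERN1, the sensor that splices it, rose by 0.85, and ATF6, a second sensor, of 198 kb, fell (-0.71). Heat shock genes had 5 rises (13.9%, beside 10.2% of all genes) and no fall among 36 (3 at an unadjusted p under 0.05). The rises were led by HSPA4L (1.17) and DNAJB4 (0.86).

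SLC30A1, the zinc exporter that MTF1 induces, was at 3.52, 4.42 and 2.95 TPM in TRF and 19.8, 19.1 and 18.8 TPM in TRF+DDP (log2 change 2.14 ± 0.11 SE, adjusted p = 1.99e-08). It and MTF1 (0.82) were the 2 higher of 4 tested genes on the metallothionein list, of which none was lower at any threshold used, and they are the regulator and a target, not metallothioneins. Of 33 NRF2 targets 2 were higher and 1 lower (6.06% and 3.03%, beside 10.2% and 6.1% of all genes). The rises were AKR1B10 (0.95) and ABCC2 (0.72), and the fall was AKR1C3 (-0.62). At the adjusted p alone 4 were higher and 16 lower, and the list's median was -0.11. Of 18 genes of cisplatin transport 1 was higher and 3 lower (5.56% and 16.7%, beside 10.2% and 6.1% of all genes). ABCC2 (MRP2), an exporter of glutathione conjugates, went from 2.02 ± 0.331 to 3.96 ± 0.357 TPM, and ABCC1 (-0.75), SLC22A3 (-0.66) and ABCC4 (-0.61), of 193, 104 and 282 kb, fell. ABCC4 missed the fold limit without replicate 2 of TRF (-0.54) or replicate 3 of TRF+DDP (-0.57).

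In ribosome biogenesis 8 of 75 were higher and 1 lower with a median of 0.19, near the background share of 10.2%, and the 4 largest rises were RIOK2 (0.90), DDX21 (0.88), WDR43 (0.81) and LYAR (0.73). NOP14, the member that fell (-0.59), missed the fold limit without replicates 2 or 3 of TRF (-0.57 and -0.58) and without replicates 1 or 3 of TRF+DDP (-0.58 and -0.51). Of 34 subunits and factors of RNA polymerases I and III 6 were higher (17.6%, beside 10.2% of all genes). POLR3D (0.77) and BDP1 (0.73) were among the rises, and none of the 34 was lower (6 at an unadjusted p under 0.05). POLR3F (0.69) passed no longer with quantile normalization (0.57). In the MYC network none of 23 was higher (5 at an unadjusted p under 0.05) and 3 were lower, MYC, MXD3 (-0.998) and TFAP4 (-1.20). The 78 cytosolic ribosomal protein genes, whose reads can also fall on many processed copies, had no call in either direction, with 25 lower and 6 higher on the unadjusted p.

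No call was made in glycolysis (27 genes, 11 lower and 7 higher on the unadjusted p), nuclear oxidative phosphorylation (62 genes, 9 and 27), the 13 mitochondrially encoded genes (2 and 2) or the proteasome (36 genes, 2 and 9), and all their log2 changes lay between -0.42 and 0.52. In cholesterol synthesis 5 of 25 were higher (20%, beside 10.2% of all genes) and 1 lower. TM7SF2, a sterol reductase, was at 3.89, 3.12 and 4.61 TPM in TRF and 23.4, 18.99 and 20.7 TPM in TRF+DDP (log2 change 2.18 ± 0.11 SE, adjusted p = 2.74e-08), still under its 25.8 ± 0.755 TPM in CON. STARD4 (0.82), IDI1 (0.71) and ACAT2 (0.65) followed, of which ACAT2 missed the fold limit with TMM-style scaling (0.57) and quantile normalization (0.57), and LSS fell (-0.62). SCD, the stearoyl-CoA desaturase, was the 1 call among 18 fatty acid genes, from 216 ± 18.5 to 116 ± 6.51 TPM (log2 change -0.89), where none was higher and 2 were higher at an unadjusted p under 0.05. Of 45 autophagy and lysosome genes 2 were higher and 2 lower (4.44% each, beside 10.2% and 6.1% of all genes). The rises were MCOLN1 (0.65) and CD68 (0.60), and the falls were the long genes UVRAG (-0.79, 328 kb) and ATG7 (-0.60, 285 kb). MCOLN1 missed the fold limit with TMM-style scaling (0.58), with quantile normalization (0.55), without replicate 3 of TRF (0.57) and without replicate 2 of TRF+DDP (0.56). CD68 missed it with TMM-style scaling (0.52), with quantile normalization (0.50), without replicate 3 of TRF (0.57) and without replicate 2 (0.57) or 3 (0.58) of TRF+DDP. ATG7 missed it without replicate 1 of TRF (-0.56) and without replicate 1 of TRF+DDP (-0.53).

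Cytoskeletal and matrix genes controlled by TGF-beta, SRF and YAP split. Of 32 tested, 5 were higher and 8 lower (15.6% and 25%, beside 10.2% and 6.1% of all genes). CCN2 (1.23), CCN1 (1.15) and ACTA2 (1.10) were among the rises, and TAGLN (-1.0003), COL4A2 (-0.92), TPM4 (-0.86) and COL4A1 (-0.79) the largest falls. CCN1 and CCN2 are secreted matricellular factors, while TAGLN and TPM4 bind actin and the other falls are collagen IV chains. Of 27 NF-kB and inflammation genes 6 were higher and 1 lower (22.2% and 3.70%). CXCL8 (1.14), IL11 (0.77), ICAM1 (0.76) and LIF (0.75) led the rises, and BCL3 was lower (-0.85). Of 29 interferon response genes 3 were higher (10.3%, about the 10.2% of all genes), TRIM22 (0.97), CGAS (0.69) and ISG15 (0.62), and none was lower (6 at an unadjusted p under 0.05). ISG15 missed the fold limit with TMM-style scaling (0.54), with quantile normalization (0.53), without replicate 2 of TRF (0.55) and without replicate 3 of TRF+DDP (0.52).

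Of 20 insulin and FOXO response genes 3 were higher and 1 lower (15% and 5%, beside 10.2% and 6.1% of all genes). The rises were SESN1 (2.17), BCL6 (0.93) and GADD45B (0.76), and TRIB2 was lower (-0.97). Of 14 circadian clock genes NR1D1 (REV-ERB alpha) was higher (1.21) and BMAL1 (-0.69) and its partner NPAS2 were lower (7.14% and 14.3%). NPAS2, a gene of 177 kb, went from 46.9, 46.3 and 50.2 to 23.7, 16.8 and 16.5 TPM (log2 change -1.31 ± 0.13 SE). Of 9 epithelial and A549 markers tested, GDF15 and AKR1B10 were higher and none was lower (2 at an unadjusted p under 0.05). Of the markers of other cell types that were tested, ITGAM (1.03) and CD68 were both higher among 2 leukocyte markers, COL1A1 (-0.82) was the 1 lower of 3 fibroblast markers, and neither of 2 endothelial markers was called or had an unadjusted p under 0.05. The summed TPM of the leukocyte markers ranged from 32.3 to 35.7 in TRF and from 49.97 to 56.1 in TRF+DDP, nearly all of it CD68, a lysosomal protein of many cells, with PTPRC at 0, and that of the fibroblast markers from 3858 to 4117 and from 2897 to 2992. Whether these had a part in any result above was not tested.

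**Figure D5:**
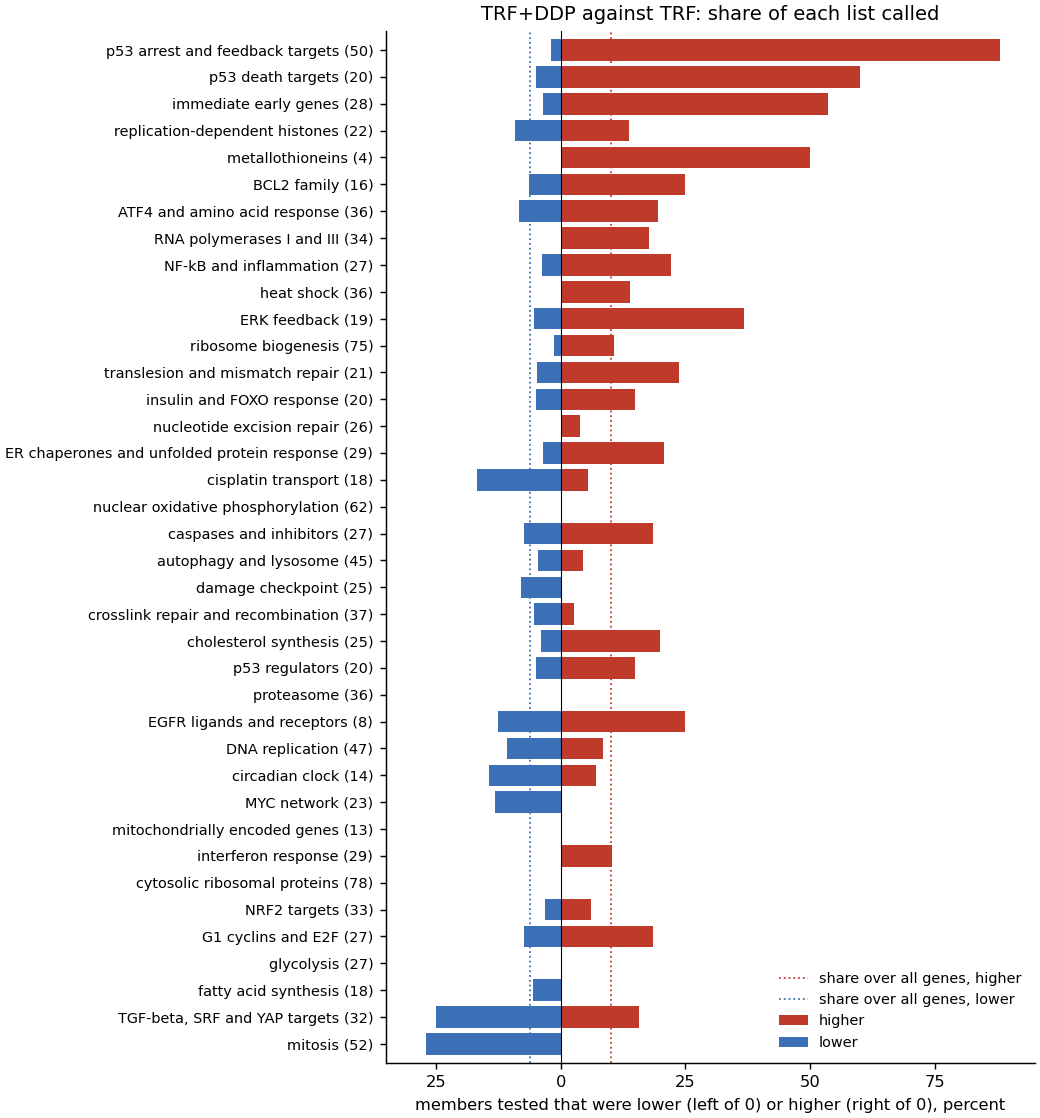
Percent of each list's tested members (number in brackets) that were higher (red, right) or lower (blue, left) in TRF+DDP than in TRF, with lists ordered by their median change and the dotted lines at 10.2% and 6.1%, the shares over all genes tested. The 2 p53 lists and the immediate early genes stand at 88.0%, 60.0% and 53.6% higher, and mitosis at 26.9% lower.

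The effect of DDP differed between the media for 4129 of 13854 genes (29.8%) by the interaction test at an adjusted p under 0.05, with 1868 more positive and 2261 more negative in restricted medium. Of the 257 genes higher in normal medium, 151 were also higher in restricted medium, which is 58.8% of the first list and 10.7% of the 1413. Their median log2 change was 0.72 in normal and 0.75 in restricted medium over all 257, of which 73 had a larger and 62 a smaller effect in restricted medium by the interaction test. The 257 were chosen by their rise in normal medium, which the interaction subtracts. That choice raises their normal-medium values and favours a smaller effect in restricted medium, so these medians and counts do not compare the media evenly. Of the 22 genes lower in normal medium 3 (13.6%, beside 6.1% of all genes) were among the 845 lower in restricted medium, of which they are 0.355%. These 3, named after their values were seen, were DNM1, SPOCK1 and MIR210HG. SPOCK1, a secreted proteoglycan gene of 623 kb, averaged 15.2 TPM in TRF and 1.25 in TRF+DDP (log2 change -2.85), against 1.45 and 0.597 TPM in CON and DDP. Another 2, HEBP2 and NR2F6, were lower in normal and higher in restricted medium. Of 6 genes that were higher in normal and lower in restricted medium, NRXN3, GALNT18, DOCK4, PRR16 and ROR1 span from 223 to 1698 kb, and UBD spans 4.41 kb. Across all 13854 genes, which are not independent replicates, the log2 changes in the 2 media, which share no library, had Pearson's r of 0.19 and Spearman's rho of 0.26.

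Of 69 different genes on the 2 lists of p53 targets, 55 were higher in restricted medium, 26 in normal medium and 24 in both, and 49 had a more positive effect of DDP in restricted medium by the interaction test and 5 a more negative one. Over all 13854 genes tested, 10.2% were higher in restricted medium, 1.86% in normal medium and 151 genes in both. For the interaction, 1868 of the 13854 were more positive and 2261 more negative. Among genes averaging 10 TPM or more in the 12 libraries, with no overlap of TRF and TRF+DDP, the most positive interactions were those of FOS (2.996, adjusted p = 8.23e-06), GDF15 (2.18), BTG2 (2.02), C4orf48 (1.78, adjusted p = 0.0126) and CDKN1A (1.69). C4orf48, which encodes a short secreted peptide, was at 33.5, 36.7 and 54.6 TPM in TRF, 79.2, 64.6 and 112 TPM in TRF+DDP, 71.6 ± 27.2 in CON and 40.1 ± 5.89 in DDP. Its libraries were spread, and its rise in restricted medium (1.01) was lost without replicate 1 (adjusted p = 0.0714) or 2 (adjusted p = 0.0577) of TRF or replicate 3 of TRF+DDP (adjusted p = 0.0684). The most negative were those of CDH4 (-2.10), MAD1L1 (-2.02), SIPA1L1 (-1.91), DENND1A (-1.90) and NPAS2 (-1.83), each of more than 100 kb. SIPA1L1, a RAP GTPase-activating protein of 421 kb, went from 11.4, 12.1 and 10.8 to 2.43, 2.1 and 2.48 TPM in restricted medium and from 14.7 ± 0.982 to 14.8 ± 1.13 TPM in normal medium.

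The noncoding genes named were the 5 largest rises and the 5 largest falls. MT-RNR1, the small ribosomal RNA of mitochondria, was at 1022, 1226 and 867 TPM in TRF and 2735, 2877 and 2595 TPM in TRF+DDP (log2 change 1.41 ± 0.11 SE, adjusted p = 1.62e-06), while none of the 13 mitochondrial protein genes was called. MT-RNR2, the other mitochondrial ribosomal RNA and not among those 5 rises, was at 3185 ± 534 TPM in TRF and 6758 ± 313 TPM in TRF+DDP. The nuclear long noncoding RNA MALAT1 was at 20.6, 63.7 and 15.2 TPM in TRF and 87.4, 73.2 and 86.4 TPM in TRF+DDP (log2 change 1.55 ± 0.44 SE, adjusted p = 0.0182). Replicate 2 of TRF stood near the treated libraries, and the call was lost without replicate 1 (adjusted p = 0.0635) or 3 (adjusted p = 0.0518) of TRF and with only the 2 groups in the fit (adjusted p = 0.105).

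RNA5-8SN3, a copy of the 5.8S ribosomal RNA, rose from 53.2 ± 4.68 to 152 ± 29.9 TPM, RNU6ATAC, the small RNA of the minor spliceosome, was listed at 0 in the 3 TRF libraries and at 63.6, 25.6 and 15.5 TPM in TRF+DDP, and CDC26P1, a processed copy of CDC26, at 0 and at 24.3, 16.7 and 25.4 TPM. RNU6ATAC, CDC26P1 and RNA5-8SN3 each span under 1 kb and have near-identical copies, and a level of 0 can be a failed estimate. How much of the small RNAs RNU6ATAC and RNA5-8SN3 the oligo(dT) selection kept is not known. RNU6ATAC was lost without any 1 of the 3 TRF libraries (adjusted p = 0.0521 to 0.0591) and without replicates 1 or 2 of TRF+DDP (adjusted p = 0.0707 and 0.0553), and RNA5-8SN3 without any 1 of the TRF libraries (0.0590 to 0.0835) and without replicates 1 or 2 of TRF+DDP (0.0837 and 0.0874). The 5 noncoding falls named were ZC3H12A-DT (-0.98), GBX2-AS1 (-0.96), LINC02086 (-0.86), VPS9D1-AS1 (-0.71) and PRRT3-AS1 (-0.67). LINC02086, an intergenic transcript, went from 23.8, 23.1 and 23.3 to 12.5, 12.8 and 12.2 TPM. Whether the quantification used strand is not given in the sources used here, so reads of an antisense gene and of its partner cannot be told apart.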

How the data were processed

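A549/DDP cells gave 12 RNA libraries (4 groups of 3) after oligo(dT) selection. The authors deposited TPM per gene, made after read cleaning (SeqPrep, sickle), alignment (HISAT2) and transcript assembly (StringTie). The submitters' processing notes also name edgeR, with no version. Not given in the sources used here are the quantifier, versions, genome build and strand setting. Pooled group means in the table were not used. TPM keep no depth, so precision rests on the spread between libraries.

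Of 60902 genes, the 13854 averaging 1 TPM or more in the 12 libraries entered limma 3.58.1 (R 4.3.3; trend and robust empirical Bayes) on log2(TPM + 1), with all 4 groups fitted together and p-values adjusted by Benjamini-Hochberg. The study tested counts with DESeq2, which TPM do not allow. Calls needed a change beyond 1.5-fold at an adjusted p under 0.05, and interactions the adjusted p alone. The mitochondrial share was compared by an exact permutation test. Tables and figures were made with Python 3.11.15, numpy 2.4.6, pandas 2.3.3 and matplotlib 3.10.9.

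Biotypes, positions and spans came from GENCODE v29 by Ensembl ID (13590 tested genes matched), and promoters from RefSeq by symbol. Groups came from the sample labels. The members and the 42 gene lists were chosen with earlier results of these data known, and lists are described by counts and medians without a test. Genes named were the 12 largest rises and falls among called protein-coding genes that have a symbol, average 10 TPM or more in TRF and TRF+DDP and show no overlap between them, the 5 largest interactions in each direction under the same conditions over 12 libraries, genes of the study's RT-qPCR panel, up to 4 called members per list and direction averaging 1 TPM or more in a group, and the 5 largest noncoding rises and falls. Alternatives were other scalings, filters, pseudocounts, thresholds and variance models, a fit of only the groups compared, a replicate block, and each library left out in turn. For gene length, quantile normalization, the pseudocount, left-out libraries and the splits by exon length and level were added after seeing the data. Results for a few genes that the rule also names are not reported here.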

Additional observations from a re-analysis of the deposited data

Results flagged for a closer look

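The effect of DDP differed between restricted and normal medium, by limma's interaction test, for 4129 genes. The interaction is the log2 change in restricted medium minus that in normal medium. Among the genes named it was positive for FOS (2.996), GDF15 (2.18), BTG2 (2.02), C4orf48 (1.78), CDKN1A (1.69), MDM2 (1.54), PMAIP1 (1.49), GADD45A (1.19) and BAK1 (0.43). It was negative for CDH4 (-2.10), MAD1L1 (-2.02), SIPA1L1 (-1.91), DENND1A (-1.90) and NPAS2 (-1.83). The median log2 change of protein-coding genes over 300 kb was -0.71 in restricted medium, where all 3 TRF+DDP libraries lay below the mean of TRF, while all 3 DDP libraries lay above the mean of CON, and this difference between the media was not tested.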

How the results depend on the processing

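The 2258 calls of TRF+DDP against TRF ranged from 2158 to 2456 (1299 to 1632 higher, 817 to 907 lower) when 1 library was left out, and numbered 1808 with at least 1 TPM in every library and 2838 with a pseudocount of 0.1. Without the fold limit they were 6639 (3891 higher, 2748 lower). DDP against CON gave 252 to 291 calls (225 to 268 higher, 17 to 27 lower) with a library left out and 1690 (1389 higher, 301 lower) without the fold limit. Its higher calls were 169 with TMM-style scaling or quantile normalization, and its lower calls were 37 and 46, and 13 with at least 1 TPM in every library. The interaction gave 3453 to 4428 genes (1482 to 2197 positive, 1915 to 2231 negative) with a library left out and 1845 (825 and 1020) with a fold over 1.5. The median of genes over 300 kb was -0.77 with TMM-style scaling, -0.78 with quantile normalization, -0.91 with a pseudocount of 0.1, -0.88 and -0.64 in the middle and longest of 3 groups by exon length, -0.59 in the highest of 3 by level, and -0.72 to -0.66 with a library left out. The cause of these shifts was not tested. The difference in mitochondrial share, 0.487 percentage points higher in TRF+DDP, ran from -0.312 to 0.923 with a library left out, and the negative value came without replicate 3 of TRF.

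Same-numbered libraries correlated in their deviations from the group means at -0.0820 to 0.0795, differently numbered ones at -0.0835 to 0.126, and 2 of 6 libraries correlated best with their own number, so the numbers were not taken as pairs. With the replicate block there were 2266 calls in restricted medium (1415 higher, 851 lower), 274 in normal medium and 4071 interactions, and of the genes named RNU6ATAC alone lost its call under it (adjusted p = 0.0509, limma). Over 174 results of single genes, 2602 of 2666 values under alternatives kept direction and side of the threshold and 64 lost the call. Of 640 list counts under alternatives, 570 stayed within 1.5 times. TPM hold no depth, so the precision of low genes cannot be given.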
